A study of Homo sapiens with 24 samples.

Results

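Germinal-centre B-cell (GCB) signature markers are genes that classifiers of diffuse large B-cell lymphoma (DLBCL) use to assign a tumour to the GCB subtype rather than to the activated B-cell (ABC) subtype. The 10 examined here were MME, MYBL1, LMO2, ITPKB, SERPINA9, STAP1, NEK6, MAML3, LRMP and ASB13, chosen by symbol from established classifiers, out of 30142 genes measured. They were carried by 15 probes, and each gene was read from its brightest probe. FOXP1, a forkhead transcription factor, was silenced for 48 h with 1 of 2 siRNAs, siFOXP1 #1 or siFOXP1 #2, delivered by Nucleofection at 1 µM. Silenced cells were hybridised against cells given a non-targeting siRNA (siCtrl) on 24 two-colour Agilent arrays, 3 replicates per siRNA in each of 4 lines. The established GCB-DLBCL lines were DB and K422, and those of ABC-DLBCL were OCI-Ly3 and HBL-1, so that 2 lines stood for each subtype. On each array the silenced cells' RNA carried Cy3 and the control cells' RNA Cy5. Without a dye swap, a probe's dye effect and its response to silencing in a line cannot be told apart.

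B cells enter the germinal centre after meeting antigen, divide there, mutate their immunoglobulin genes and are selected, before leaving as memory or plasma cells. GCB-DLBCL keeps much of the transcription of that stage, whereas ABC-DLBCL resembles cells on the way to plasma cells and depends on NF-κB signalling. FOXP1 is low in normal germinal-centre cells and often abundant in ABC-DLBCL. The comparisons asked how far the markers separate the lines before silencing, whether they respond to loss of FOXP1, and whether that response differs between subtypes.

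The promoter sequences of 3 markers that rose on silencing are shown because FOXP1 binds forkhead motifs. Each is the 250 bases upstream of a RefSeq start site in build GRCh38.p14, written 5′ to 3′ on the gene's strand. Capitals mark matches on either strand to the motifs searched, which were TGTTTAC, then TATTTGT, and also TATTTAT. Other variants of the forkhead motif were not searched and stay in lower case where present. LRMP (current symbol IRAG2) has 3 start sites, of which the one with a match is printed, at chr12:25051978-25052227 on the plus strand. ITPKB lies at chr1:226739283-226739532 on the minus strand, and STAP1 at chr4:67558477-67558726 on the plus strand.
LRMP: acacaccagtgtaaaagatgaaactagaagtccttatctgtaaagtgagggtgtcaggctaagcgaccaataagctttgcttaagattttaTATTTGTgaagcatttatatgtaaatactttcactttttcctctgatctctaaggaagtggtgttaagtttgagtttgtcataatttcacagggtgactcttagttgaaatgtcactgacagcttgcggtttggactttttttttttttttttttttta
ITPKB: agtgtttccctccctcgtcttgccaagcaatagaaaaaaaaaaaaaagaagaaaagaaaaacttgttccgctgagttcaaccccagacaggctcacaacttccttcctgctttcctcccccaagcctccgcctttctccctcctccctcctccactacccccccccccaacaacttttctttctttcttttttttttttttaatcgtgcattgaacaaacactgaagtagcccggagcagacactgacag
STAP1: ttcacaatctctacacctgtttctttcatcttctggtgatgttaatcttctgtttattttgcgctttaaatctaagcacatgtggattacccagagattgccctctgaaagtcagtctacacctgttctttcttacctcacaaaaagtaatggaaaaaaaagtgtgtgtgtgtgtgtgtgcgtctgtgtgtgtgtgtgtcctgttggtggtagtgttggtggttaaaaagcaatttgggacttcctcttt
The LRMP window held 1 TATTTGT, at position -159 relative to the start site, while the ITPKB and STAP1 windows held none of the 3 motifs. Of 17 start sites of 8 members with a promoter sequence, 2 held a motif, the other being the TGTTTAC motif in MAML3. That share of 11.8% stood beside 9.94% of all 35116 start sites, made up of 2.98% holding TGTTTAC, 3.18% holding TATTTGT and 4.60% holding TATTTAT, which can occur together. A match describes letters in this window only. LMO2 and MYBL1 are named here without a sequence.

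The SERPINA9 probe is shown because, among the brightest probes of the markers, it is the one whose annotated coordinates run past its own length: its 60 bases are placed over 2314 bases at chr14:94000897-94003210 (build hg18, minus strand).
SERPINA9 probe: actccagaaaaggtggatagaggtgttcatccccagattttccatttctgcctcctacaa
In the same build, the brightest MME probe lay at chr3:156383444-156383503, the LRMP probe at chr12:25152362-25152421, the ITPKB probe at chr1:224886210-224886269, the STAP1 probe at chr4:68154817-68154876 and the LMO2 probe at chr11:33836819-33836878.

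The share of probes well above background in either channel ranged from 57.3% to 64.5% over the arrays. FOXP1 itself fell on 6 of 6 arrays in each line. Its mean log2 ratio of silenced over control signal was -2.00 ± 0.79 (SD, n = 6) in DB, -1.96 ± 0.54 in OCI-Ly3, -1.74 ± 0.55 in HBL-1 and -1.34 ± 0.47 in K422. All 7 B cell markers checked were well above background on every array of every line. Of 6 T cell and myeloid markers, 4 were well above background in the control channel on all 6 arrays of K422 (CD3D, CD3E, CD14 and CSF1R), 2 in HBL-1 and 2 in OCI-Ly3 (CD3E and CSF1R in both) and 1 in DB (CSF1R). Their mean levels ran up to 2.29 in K422, for CD3D, and up to -1.78 in the other lines, for CSF1R in DB, while CD3D was well above background on no array outside K422. In these bulk cultures fewer expressing cells and less RNA per cell cannot be told apart.

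Before silencing, 5 of the markers separated the subtypes, and these 5 were also called within each scanning run. MME, MYBL1, SERPINA9, STAP1 and ITPKB were higher in the GCB-DLBCL lines, NEK6 was higher on average in the ABC-DLBCL lines, and the other four did not reach the limits. The level is the log2 Cy5 signal relative to the array's 75th percentile, with the arrays of 1 line and replicate number averaged, so that n = 3 per line. DB and OCI-Ly3 were scanned in 1 run and K422 and HBL-1 in another, with different software versions. Any difference between lines of different runs therefore cannot be told apart from the run, whatever its P-value. A gene was called at a Benjamini-Hochberg adjusted P-value under 0.05 in limma over all genes and a difference of at least 1 on the log2 scale. By this rule 5 of 10 markers were higher in GCB-DLBCL, where 9.48% of all genes were called, and 1 of 10 was lower, where 11.8% were called. For the same 5 markers all 6 GCB-DLBCL values lay above all 6 ABC-DLBCL values, which held for 6.63% of all genes. The median difference was 1.57 over the 10 markers and 0.02 over all genes.

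**Figure D1:**
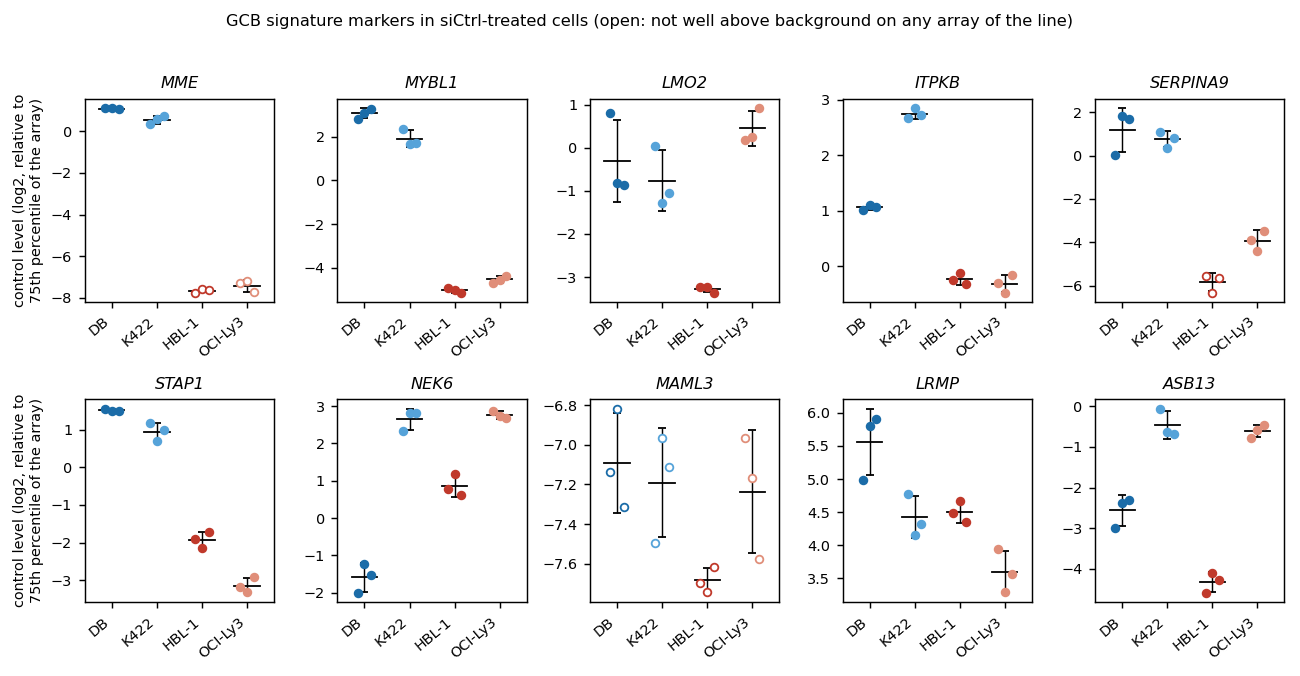
Control level of each marker in siCtrl-treated cells, in log2 units relative to the array's 75th percentile; each point is 1 replicate number (mean of 2 arrays), and bars are the mean and SD of 3. MME, MYBL1, SERPINA9, STAP1 and ITPKB lie higher in DB and K422 than in HBL-1 and OCI-Ly3, whereas NEK6, ASB13, LMO2 and LRMP do not follow the subtype, and MAML3 was not well above background in any line.

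MME encodes CD10, a zinc peptidase on the surface of germinal-centre cells. Its control levels were 1.11, 1.10 and 1.08 in DB and 0.36, 0.58 and 0.72 in K422. In HBL-1 they were -7.74, -7.59 and -7.62, and in OCI-Ly3 -7.29, -7.20 and -7.73. The groups were far apart, but no array of either ABC-DLBCL line was well above background, so the size of the difference is uncertain. Set against a floor, MME was 372-fold higher in DB than in HBL-1 and 321-fold higher than in OCI-Ly3. In K422 it was 253-fold higher than in HBL-1 and 220-fold higher than in OCI-Ly3. The floor is the higher of the dim probe's own signal and the lowest signal well above background on each array. Each ratio is the lower of the values after loess and Aquantile normalization and after scaling to the 75th percentile. These ratios are not lower bounds, since the lowest such signal over all probes need not be the detection limit of MME. In OCI-Ly3, MYBL1 at -4.85 was not well above background on the siFOXP1 #1 array of replicate 1. Adjusted P was 7.83e-13 for the subtype difference, and DB and K422 differed by 0.54, under the limit of 1.

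MYBL1, a transcription factor of the MYB family that is expressed in germinal-centre cells, stood at 2.82, 3.10 and 3.28 in DB and at 2.36, 1.66 and 1.71 in K422. It was -4.93, -5.03 and -5.14 in HBL-1 and -4.69, -4.55 and -4.37 in OCI-Ly3. The subtype difference was 7.27 (adjusted P = 9.63e-12), with DB above K422 by 1.16 (adjusted P = 0.000488). Its control signal was well above background on 5 of 6 HBL-1 arrays and 4 of 6 OCI-Ly3 arrays, so the ABC-DLBCL values were close to the detection limit. With normexp background correction of Cy5 the difference was 4.98 for MYBL1 and 3.81 for MME.

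SERPINA9, a serine protease inhibitor restricted largely to germinal-centre B cells, was 0.01, 1.85 and 1.67 in DB and 1.10, 0.37 and 0.80 in K422. OCI-Ly3 gave -3.90, -4.41 and -3.46, and HBL-1 -5.56, -6.32 and -5.63. In HBL-1 the control signal was not well above background on any array, and in OCI-Ly3 it was on 5 of 6. Set against the same kind of floor in HBL-1, SERPINA9 was 129-fold higher in DB, 96.4-fold higher in K422 and 3.64-fold higher in OCI-Ly3. Adjusted P of the limma fit was 1.8e-07, 4.03e-07 and 0.00478. In HBL-1 this floor was the probe's own signal, so these ratios are not lower bounds either. DB exceeded OCI-Ly3 by 5.10 (adjusted P = 3e-06). The fitted subtype difference, 5.85 (adjusted P = 4.13e-08) or 3.39 with normexp correction, takes in HBL-1 values that were not well above background.

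STAP1, an adaptor protein of B-cell receptor signalling, and ITPKB, a kinase that converts inositol trisphosphate to the tetrakisphosphate downstream of antigen receptors, were well above background in the control channel on every array. STAP1 was highest in DB, with control levels of 1.56, 1.50 and 1.49, followed by K422 with 1.17, 0.70 and 0.98. The ABC-DLBCL lines lay lower without overlap, HBL-1 at -1.91, -2.15 and -1.73 and OCI-Ly3 at -3.19, -3.32 and -2.93. Its subtype difference was 3.77 (adjusted P = 2.84e-10), and HBL-1 exceeded OCI-Ly3 by 1.21. ITPKB was highest in K422, at 2.67, 2.85 and 2.74, then in DB, at 1.02, 1.10 and 1.07, and lowest in HBL-1, at -0.24, -0.11 and -0.32, and OCI-Ly3, at -0.30, -0.47 and -0.16. Its subtype difference was 2.18 (adjusted P = 1.94e-09), and HBL-1 and OCI-Ly3 differed by 0.09 (adjusted P = 0.55).

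The remaining markers varied between lines without following the subtype. NEK6, a mitotic kinase, averaged 2.76 in OCI-Ly3 and 2.65 in K422, whose difference did not pass (adjusted P = 0.695), 0.86 in HBL-1 and -1.59 in DB. The subtype difference of -1.28 (adjusted P = 3.75e-05) therefore joined opposite differences within the scanning runs. DB lay 4.35 below OCI-Ly3, and K422 lay 1.80 above HBL-1. ASB13, a substrate adaptor of a ubiquitin ligase, behaved likewise: DB lay 1.95 below OCI-Ly3 (adjusted P = 3.13e-05) and K422 3.87 above HBL-1 (adjusted P = 1.18e-07).

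LMO2, a LIM-domain protein that bridges transcription factors, had its highest mean control level in the ABC-DLBCL line OCI-Ly3. Its control levels were 0.18, 0.25 and 0.92 in OCI-Ly3 and 0.79, -0.82 and -0.88 in DB. K422 gave 0.04, -1.27 and -1.05, while HBL-1 gave -3.24, -3.22 and -3.36. OCI-Ly3 exceeded K422 by 1.21 (adjusted P = 0.0442), and its 0.75 above DB did not pass (adjusted P = 0.24; 95% interval of DB minus OCI-Ly3 from -1.75 to 0.25). HBL-1 alone was low, 2.51 below K422 (adjusted P = 0.000815). LRMP, an endoplasmic reticulum membrane protein of lymphoid cells, was highest in DB, at 4.99, 5.79 and 5.91, close together in HBL-1 and K422, with means of 4.50 and 4.42, and lowest in OCI-Ly3, at 3.93, 3.30 and 3.56, and its subtype difference of 0.94 (adjusted P = 0.0013) fell just under the limit of 1, as did that of ASB13 at 0.96 and of LMO2 at 0.88. MAML3, a coactivator of Notch, was not well above background in either channel on any of the 24 arrays, and nothing is read from its values.

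Each scanning run held 1 line of each subtype, the first DB with OCI-Ly3 and the second K422 with HBL-1. Between DB and OCI-Ly3, 6 of 10 markers were higher in the GCB-DLBCL line and 2 lower, with 11.7% and 14.1% of all genes called. Between K422 and HBL-1 these counts were 8 and 0, with 13.4% and 12.4% of all genes called. On the slides that carried both subtypes, 2 arrays each, MME differed by 8.36 and 8.46 and STAP1 by 4.68 and 2.90, GCB-DLBCL minus ABC-DLBCL. With the 4 line means as the units no marker passed, adjusted P being 0.0641 for MME and 0.0698 for MYBL1, so these P-values describe differences between these cultures and not between subtypes at large.

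On silencing of FOXP1, 5 of the 10 markers rose in at least 1 line and none fell at the limits used. MYBL1, MME and LRMP rose in K422, and LRMP, ITPKB and STAP1 rose in HBL-1. By the brightest probe, LRMP alone was thus called in a line of each subtype. The second brightest MYBL1 probe also passed the limits in both K422 and HBL-1. No marker was called in DB or OCI-Ly3. A gene was called at an adjusted P-value under 0.05 and a change of at least 0.5 on the log2 scale for the mean of both siRNAs. The 6 arrays of a line came from 3 replicate numbers, and arrays of a number moved together, so n = 6 counts arrays and not independent experiments. With the replicate number fitted as a block the calls stayed. Adjusted P then rose above 0.05 for MYBL1 in DB and HBL-1, NEK6 in K422 and ASB13 in HBL-1.

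The counts were set against all genes. In K422, 3 of 10 markers rose and 0 fell, where 2.34% of all genes rose and 2.10% fell. In HBL-1, 3 of 10 rose and 0 fell, where 5.73% rose and 4.17% fell. In DB, 0 rose and 0 fell (1.33% and 0.829% of all genes), and in OCI-Ly3 0 rose and 0 fell (2.80% and 1.62%). At an unadjusted P under 0.05 in limma, 1 marker was higher and 0 lower in DB, where 12% of all genes were higher, 3 and 0 in OCI-Ly3 (14.9% of all genes higher), 5 and 1 in K422 (15% higher and 15% lower) and 4 and 3 in HBL-1 (19.9% higher and 18.5% lower). Those higher were MYBL1 in DB and LMO2, STAP1 and LRMP in OCI-Ly3, and those lower were NEK6 in K422 and NEK6, ASB13 and SERPINA9 in HBL-1. The control signal of SERPINA9 was not well above background on any HBL-1 array, so nothing is read from its response there. The markers' median change was 0.31 in K422, 0.09 in DB and 0.07 in both HBL-1 and OCI-Ly3, against 0 over all genes in each line. These medians take in MAML3 in every line and MME in HBL-1 and OCI-Ly3, where neither was well above background. In HBL-1 the middle values were those of MAML3, 0, and MME, 0.14, so this median does not describe the measured markers.

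**Figure D2:**
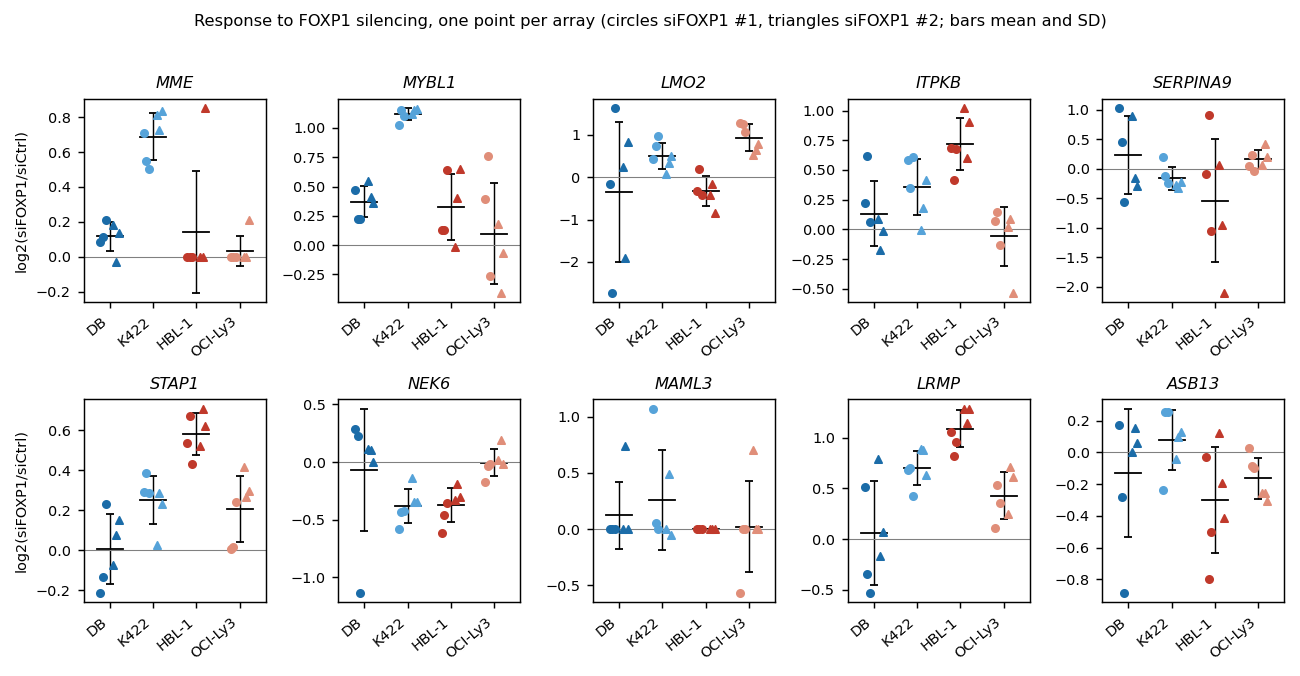
Log2(siFOXP1/siCtrl) of each marker, 1 point per array (circles siFOXP1 #1, triangles siFOXP1 #2), with the mean and SD of the 6 arrays of a line. MYBL1, MME and LRMP lie above 0 on all 6 K422 arrays and LRMP, ITPKB and STAP1 on all 6 HBL-1 arrays, while LMO2 spreads from -2.72 to 1.63 in DB; points at exactly 0 for MME and MAML3 are arrays on which neither channel was measured.

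MYBL1 showed the greatest rise of the markers in K422. The 6 arrays gave 1.03, 1.14 and 1.16 as lowest, median and highest, and the mean was 1.12 ± 0.05 (SD, n = 6; adjusted P = 1.84e-06), a 2.17-fold rise. In DB all 6 arrays lay above 0, from 0.23 through a median of 0.38 to 0.54, with a mean of 0.37 ± 0.13 (adjusted P = 0.0305) that did not reach 0.5. HBL-1 ranged from -0.01 to 0.65 with a median of 0.27 and a mean of 0.32 ± 0.28 (adjusted P = 0.0291), close to that of DB. OCI-Ly3 ranged from -0.40 to 0.76 with a median of 0.06. Arrays of the GCB-DLBCL lines thus all lay above 0, as did 5 of 6 of HBL-1, while those of OCI-Ly3 lay on both sides of it. The other three MYBL1 probes rose in K422 as well, by 0.83, 0.73 and 0.68. In HBL-1 the probes disagreed: the second brightest gave 0.72 and passed the limits, the third gave 0.23 and the fourth 0.00, and these last were not well above background in that line.

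**Figure D3:**
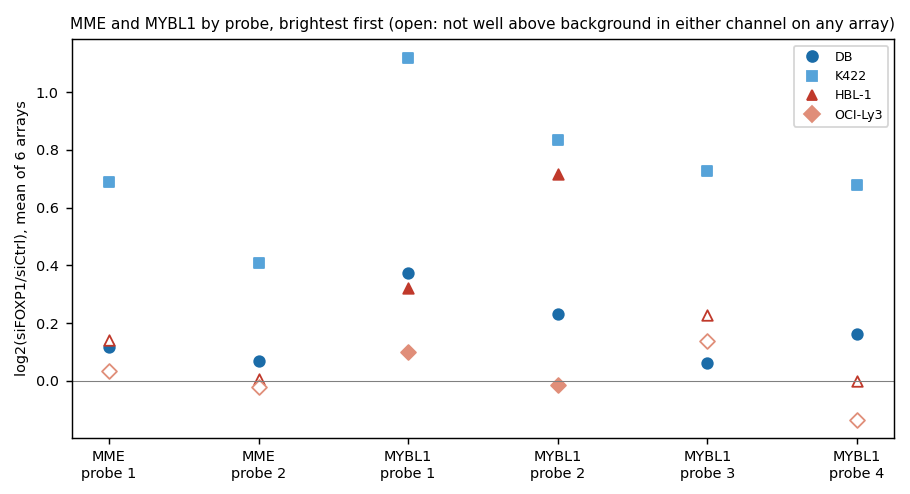
Mean log2(siFOXP1/siCtrl) of the 2 MME and 4 MYBL1 probes in each line, brightest probe first; open symbols mark probes that neither channel showed well above background on any array of the line. All 4 MYBL1 probes lie between 0.68 and 1.12 in K422, and the second lies at 0.72 in HBL-1.

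MME rose in K422 and could not be read in the ABC-DLBCL lines. In K422 the lowest, median and highest arrays were 0.50, 0.72 and 0.83, with a mean of 0.69 ± 0.14 (adjusted P = 7.67e-06), or 1.61-fold. In DB, where the control level was 1.46-fold that of K422, the arrays ran from -0.03 to 0.21 with a mean of 0.12 ± 0.08 (adjusted P = 0.408). The ranges of the GCB-DLBCL lines did not overlap. The second MME probe gave 0.41 in K422, below the limit, and with normexp correction and median centring the first gave 0.47. In HBL-1 and OCI-Ly3 neither channel was well above background on any array.

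LRMP was called in more lines than any other marker. HBL-1 gave 0.82, 1.10 and 1.29 as lowest, median and highest, with a mean of 1.09 ± 0.19 (adjusted P = 1.99e-06), or 2.13-fold. K422 gave 0.43, 0.69 and 0.89, with a mean of 0.70 ± 0.17 (adjusted P = 0.000452). OCI-Ly3 gave 0.11, 0.44 and 0.71, with a mean of 0.43 ± 0.23 (adjusted P = 0.0178), under the limit of 0.5 until replicate 1 was left out, which gave 0.55. LRMP was above 0 on all 18 arrays of these lines. In DB it lay on both sides of 0, from -0.53 to 0.79, both replicate 1 arrays being the highest. In K422, normexp correction with median centring gave 0.39 (adjusted P = 0.276) and siFOXP1 #1 alone gave 0.60 (adjusted P = 0.0655), so that the call was lost.

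ITPKB rose in HBL-1, where the arrays gave 0.42, 0.68 and 1.02 as lowest, median and highest and a mean of 0.72 ± 0.22 (adjusted P = 4.82e-06), or 1.65-fold. K422 gave -0.01, 0.38 and 0.61, with a mean of 0.36 ± 0.24 (adjusted P = 0.00656) below the limit, and OCI-Ly3 -0.53, 0.04 and 0.14. STAP1 rose in HBL-1 by 0.58 ± 0.10 (adjusted P = 3.6e-07), with 0.43, 0.58 and 0.71 as lowest, median and highest. It was above 0 on every array of K422, from 0.03 to 0.39, and of OCI-Ly3, from 0.01 to 0.42, with means of 0.25 and 0.21 that passed the P-value but not the size. Normexp correction gave 0.37 for STAP1 in HBL-1 with loess (adjusted P = 5.68e-06) and 0.23 with median centring (adjusted P = 0.115), and 0.47 for ITPKB in HBL-1 with median centring, all under the limits.

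LMO2 gave the widest spread. In OCI-Ly3 it was above 0 on all 6 arrays, with 0.53, 0.93 and 1.28 as lowest, median and highest and a mean of 0.93 ± 0.32, and in K422 likewise, with 0.08, 0.46 and 0.97 and a mean of 0.51 ± 0.31. In DB the mean was -0.35 ± 1.66: replicate 1 gave -0.15 and 0.23 with siFOXP1 #1 and #2, replicate 2 gave -2.72 and -1.90, and replicate 3 gave 1.63 and 0.83. Arrays of the same number thus moved together in DB and arrays of different numbers apart, by more than any response of LMO2 in another line. The DB arrays entered the spread shared by all lines, and LMO2 did not pass in OCI-Ly3 (adjusted P = 0.0993) or K422 (adjusted P = 0.41). Fitted without the other lines, it passed in both, with adjusted P = 0.00207 and 0.0329.

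**Figure D4:**
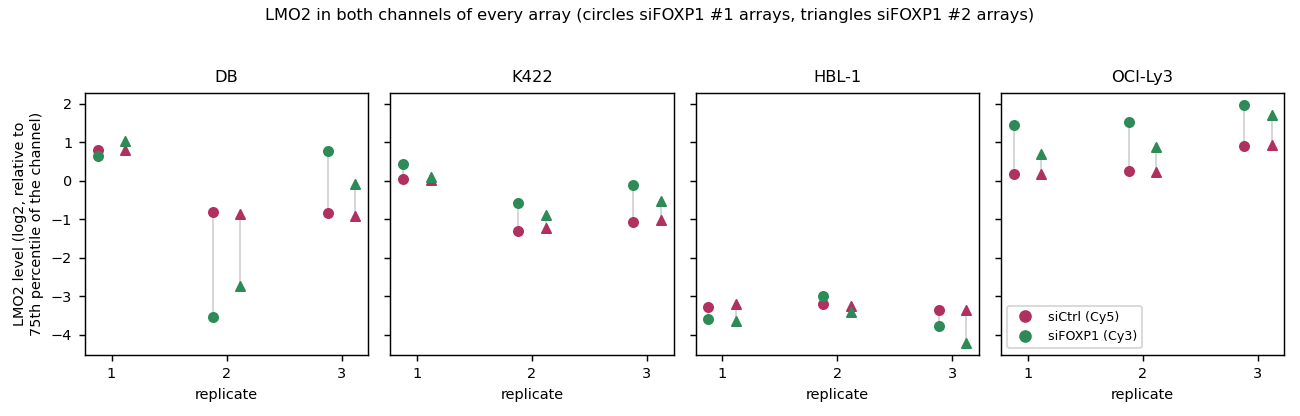
LMO2 level in the siCtrl (Cy5) and siFOXP1 (Cy3) channel of every array, in log2 units relative to the 75th percentile of that channel, by line and replicate; circles are siFOXP1 #1 arrays and triangles siFOXP1 #2 arrays. In DB the silenced channel runs from -3.53 to 1.03 over the replicates, and the control channel from -0.91 to 0.80, with both arrays of a number close to each other in the control channel.

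The remaining markers passed in no line. NEK6 was below 0 on all 6 arrays of K422, with a mean of -0.38 ± 0.15 (adjusted P = 0.0307), and of HBL-1, with -0.37 ± 0.15 (adjusted P = 0.0218), neither reaching 0.5. With normexp correction and median centring both passed, at -0.57 and -0.58. ASB13 averaged -0.30 ± 0.34 in HBL-1 (adjusted P = 0.0443), and between -0.16 and 0.08 in the other lines. SERPINA9 averaged 0.23 ± 0.66 in DB and -0.16 ± 0.19 in K422, where it was measured on every array, and 0.16 ± 0.16 in OCI-Ly3. Its control signal in HBL-1 was not well above background on any array.

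Response and subtype were compared as the mean of HBL-1 and OCI-Ly3 minus the mean of DB and K422. MYBL1 was the 1 marker of 10 whose response was lower in ABC-DLBCL, by 0.54 on the log2 scale (-0.54 ± 0.11, SE; adjusted P = 0.0042), where 0.866% of all genes were called, and 0 of 10 were higher, where 1.40% were called. HBL-1 minus K422 gave -0.80 (adjusted P = 0.00242), and OCI-Ly3 minus DB gave -0.27 (adjusted P = 0.476). On the slides that carried both lines of a run it was -1.07 for HBL-1 minus K422 and -0.0028 for OCI-Ly3 minus DB. The other MYBL1 probes, brightest first, gave subtype differences of -0.18 (adjusted P = 0.619), -0.21 (adjusted P = 0.542) and -0.49 (adjusted P = 0.00381) in limma, none reaching 0.5. The call was not kept with the mean of all MYBL1 probes (-0.35), with siFOXP1 #1 alone (-0.40), with normexp correction and median centring (-0.51, adjusted P = 0.0804), without HBL-1 replicate 1 (-0.47) or without OCI-Ly3 replicate 3 (-0.47), and MYBL1 was near the detection limit in the ABC-DLBCL controls.

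**Figure D5:**
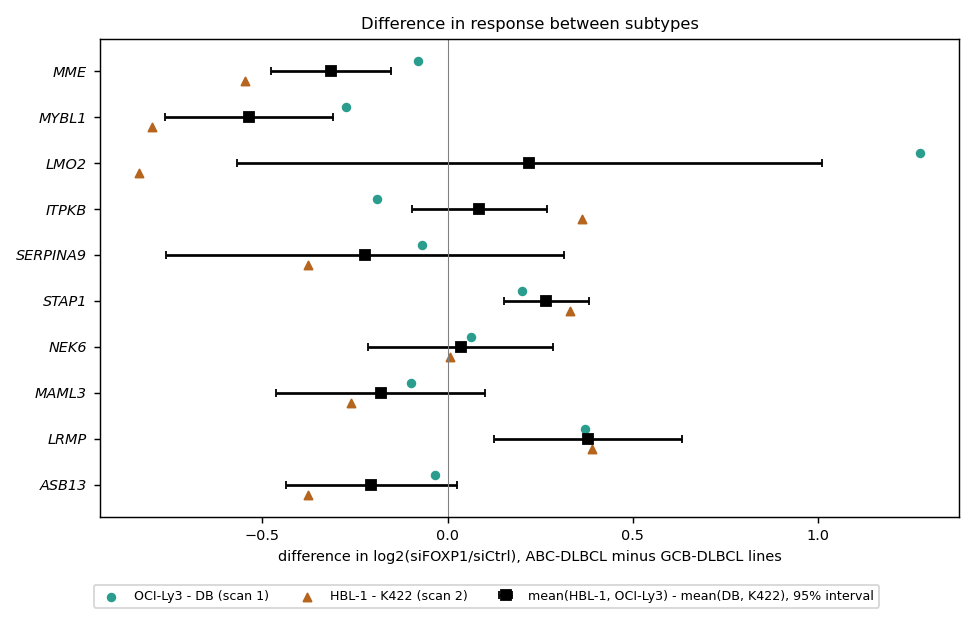
Difference between subtypes in the log2 response of each marker (squares, with the 95% interval of the limma fit), with the difference within each scanning run (circles OCI-Ly3 minus DB, triangles HBL-1 minus K422). MYBL1 lies at -0.54, while the within-run values of LMO2 lie at 1.28 and -0.83, on opposite sides of 0.

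For STAP1 the difference was 0.27 (adjusted P = 0.00473) and for LRMP 0.38 (adjusted P = 0.0611), with higher responses in the ABC-DLBCL line in each scanning run. STAP1 differed by 0.20 and 0.33 and LRMP by 0.37 and 0.39 within the runs. Neither met both limits, although LRMP did without DB replicate 1, at 0.53. The difference for MME, -0.31 (adjusted P = 0.0152), sets the rise in K422 against lines in which MME was not measured above background. For LMO2 the runs opposed each other, OCI-Ly3 minus DB giving 1.28 and HBL-1 minus K422 giving -0.83, and the 95% interval of the subtype difference ran from -0.57 to 1.01. NEK6 differed by 0.04, with an interval from -0.21 to 0.29.

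The siRNAs were compared within each line, siFOXP1 #2 minus #1. None of the 10 markers was called in any line, where the share of all genes called was 0.302% for DB, 0.192% for OCI-Ly3, 0.173% for HBL-1 and 0.159% for K422. FOXP1 itself averaged -2.70 with siFOXP1 #2 and -1.30 with #1 in DB, and -1.76 and -0.91 in K422. MYBL1 in K422 averaged 1.10 with siFOXP1 #1 and 1.14 with #2, MME 0.59 and 0.79, and LRMP 0.60 and 0.80. In HBL-1, LRMP averaged 0.94 and 1.24, ITPKB 0.59 and 0.84, and STAP1 0.55 and 0.62. At an unadjusted P under 0.05 in limma, 1 of the 40 comparisons of marker and line passed (STAP1 in OCI-Ly3).

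Other genes of the 2 programmes were counted from lists given beside the markers. Of 17 further germinal-centre genes, 9 were higher in the GCB-DLBCL controls and 3 lower, where 9.48% and 11.8% of all genes were called. On silencing, 8 rose in HBL-1 (5.73% of all genes), 5 in K422 (2.34%), 3 in OCI-Ly3 (2.80%) and 0 in DB (1.33%). Those in OCI-Ly3 include a gene not well above background on any array of the line in either channel. In no line did any fall, where 4.17%, 2.10%, 1.62% and 0.829% of all genes fell, in the same order. These shares of all genes hold for the lists below as well. In HBL-1, RGS13, a regulator of G-protein signalling, rose by 1.32 and IRF8, a transcription factor of germinal-centre cells, by 1.19, and in K422 S1PR2, a receptor that holds cells in the germinal centre, rose by 0.77.

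All 17 ABC-DLBCL genes were lower in the GCB-DLBCL controls, by a median of 5.70. On silencing 1 rose in K422, 1 rose and 1 fell in HBL-1, 1 fell in OCI-Ly3, and 0 moved in DB. CCND2, cyclin D2, fell by 0.99 in HBL-1 and by 0.60 in OCI-Ly3, and IL16, a cytokine, rose by 0.71 in HBL-1. Of 7 B cell markers, 3 rose in HBL-1 (CD22 by 0.89, CD79B by 0.59 and CD79A by 0.56), 1 rose in OCI-Ly3 (MS4A1 by 0.64) and 0 moved in K422 or DB. Of 4 plasma cell markers, PRDM1, the transcription factor that drives plasma cell differentiation, rose by 0.73 in HBL-1, and no other was called in any line. PRDM1 was dim in HBL-1, with a control signal well above background on 5 of 6 arrays. Of 3 T cell markers 0 moved in any line. Of 3 myeloid markers, 1 rose in DB and 2 fell in K422. The riser in DB was LYZ, well above background there on 1 of 6 arrays in each channel. LYZ was also among those that fell in K422, where it was not well above background on any array. CSF1R, the receptor for colony-stimulating factor 1, fell by 0.99 in K422, where its silenced signal was well above background on 4 of 6 arrays. Whether these changes bear on those of the markers was not tested.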

How the data were processed

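Log2 ratios were taken from the Feature Extraction LogRatio, deposited as log10 of Cy5 over Cy3 and already background-subtracted and dye-normalized by the scanner software (versions 10.5.1.1 and 10.7.3.1, per the file headers), as -LogRatio/log10(2). Control levels were taken from the deposited processed Cy5 intensity. Per the labels, Cy3 held the silenced and Cy5 the control cells. The deposited value table, log2 of silenced over control normalized by the authors in GeneSpring, correlated with these ratios at 0.804 to 0.998 per array and served as an alternative. Its column medians ran from -0.173 to 0.0669, and its normalization is not fully stated in the sources used here. The deposited flags marked as other values gave outlier spots and signals well above background.

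Control spots and 113 to 469 outlier spots per array were dropped, spots of a probe averaged and the brightest probe kept per gene. limma 3.58.1 in R 4.3.3 fitted 8 means of line and siRNA to all 24 arrays, which share 1 spread, with Benjamini-Hochberg adjustment over all genes. Control levels were scaled to the 75th percentile. Arrays of 1 line and replicate number were averaged, since the labels do not say whether they share control RNA. Per the study's methods the arrays came from 3 independent experiments, but whether a replicate number marks the same experiment for both siRNAs is not given in the sources used here. The number of arrays limits precision. The fits were tested on data simulated with independent arrays, which cannot test the P-values where arrays of a replicate number move together. All 10 markers with every probe are described. From other lists genes were named only if called with 1 direction on all 6 arrays, at most 4 per list and comparison, or to describe their detection. A gene that met this rule is not reported here. The markers and lists were chosen with earlier results of these data known. Alternatives were normexp with offset 50 and loess or median centring, the deposited value table, filters, probe averaging, blocks, other scalings, single siRNAs and lines, and leaving out each replicate.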

Additional observations from a re-analysis of the deposited data

Results flagged for a closer look

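An array stood apart from the rest of its line in 4 of 40 sets of marker and line. MAML3 in HBL-1, with every array listed at 0, could not be tested. The usual chance rate of 1 in 20 does not hold where the other arrays are listed at 0, so the count was not set against it. For MME the siFOXP1 #2 array of replicate 3 gave 0.85 for HBL-1 and 0.21 for OCI-Ly3, whereas for MAML3 the siFOXP1 #2 array of replicate 2 gave 0.74 in DB, the other arrays being listed at 0. In all of these the probe was not well above background in either channel on any array of the line. For NEK6 in DB, measured on every array, the siFOXP1 #1 array of replicate 3 gave -1.14 against a next lowest value of -0.00.

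The response of MYBL1 differed between subtypes by -0.54, ABC-DLBCL minus GCB-DLBCL, and by -0.80 between HBL-1 and K422. The response of MME differed by -0.55 between HBL-1 and K422, but MME was not well above background on any HBL-1 array. What part low signal has in these differences was not tested.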

How the results depend on the processing

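Of 1164 marker values recomputed under alternatives, 1096 kept their direction and their side of the limits or were called in neither setting, 24 lost a call, 42 gained one and 2 reversed; 43 uncalled values changed sign. The reversals were the control levels of ASB13, -1.95 within DB and OCI-Ly3, and NEK6, 1.80 within K422 and HBL-1. No marker was called for a difference between siRNAs under any alternative run.

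Arrays of the same replicate number in a line had deviations that correlated from 0.0907 to 0.537 over 17173 genes measured in both channels, and above 0.1 in 10 of 12 pairs, all but 2 of OCI-Ly3. The main fit did not take the number as a pairing. Yet 24 of 24 arrays correlated best with their own number, so arrays of a number were not independent and P-values without the block can be too small. With the replicate block (correlation 0.248) the calls stayed at 3 markers higher in K422, 3 in HBL-1, and 1 lower response in ABC-DLBCL (MYBL1, adjusted P = 0.014), and 0 markers differed between siRNAs. Of responses below the fold limit, 4 no longer had an adjusted P under 0.05 with the block: MYBL1 in DB (0.0715) and HBL-1 (0.0615), NEK6 in K422 (0.0668) and ASB13 in HBL-1 (0.0788). Control levels from 24 arrays gave the main counts with and without the replicate block.

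Markers higher in K422 numbered 1 with normexp and median centring, 1 at a 2-fold limit and 5 with no fold limit, and those lower 1 with normexp and median centring and 1 with no limit. In HBL-1 they were 1 higher and 1 lower with normexp and median centring, 1 higher at 2-fold and 2 lower with no limit. With no limit MYBL1 was added to those higher in HBL-1, and with normexp and loess STAP1 dropped out of them. In OCI-Ly3, 1 was higher (LMO2) with normexp and loess, with the line alone and with the per-gene test named in the methods, and 2 with no limit. In DB 1 was higher with no limit. Responses lower in ABC-DLBCL numbered 0 with normexp and median centring, the mean over probes, siFOXP1 #1 alone, 4 line means and the DB and OCI-Ly3 run, and 2 with the deposited value table and in the K422 and HBL-1 run. Markers higher in GCB-DLBCL controls were 8 with median scaling, 7 with quantile normalization, 7 with loess and Aquantile, 6 in the Cy3 channel, 8 in the K422 and HBL-1 run and 0 with 4 line means. Those lower were 0 with normexp on Cy5, 0 with 4 line means, 0 in the K422 and HBL-1 run and 2 in the DB and OCI-Ly3 run. Median scaling moved the median difference of all genes from 0.016 to 0.212.

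Leaving out a replicate gave 0 to 1 marker lower in DB (LMO2, without DB replicate 3, at -1.14), 0 to 1 higher in OCI-Ly3 (LRMP, without replicate 1), 0 to 1 response higher and 0 to 1 lower in ABC-DLBCL, and 5 to 8 markers higher in GCB-DLBCL controls, 8 being reached without K422 replicate 2. The counts in K422 and HBL-1 stayed at 3 higher. Markers at the detection limit (MAML3 in all lines, MME in the ABC-DLBCL lines, SERPINA9 in HBL-1) allow no statement on their response there.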
